A study of Rattus norvegicus with 36 samples.

Results

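The miR-183, miR-96 and miR-182 cluster was described in lung and whole blood of rats after a single dose of X-rays to the whole thorax. Its members were taken by name from the table of read counts, where rno-miR-183-5p, rno-miR-96-5p and rno-miR-182 were 3 of the 947 miRNAs listed. Small RNA libraries (n = 36) were made from female rats of the strain WAG/RijCmcr that were 9 to 10 weeks old when irradiated, with 18 libraries from lung (right superior lobe) and 18 from blood drawn from the heart. Each tissue has 6 groups of 3 libraries. These are non-irradiated, age-matched rats (0 Gy) at 1 week and at 4 weeks, and rats given 15 Gy, taken at 1, 2, 3 and 4 weeks. The labels give no more than 3 samples per group, while the methods of the study describe each library as a pool of equal RNA from 3 rats. Here n counts libraries, and no single animal can be seen within a pool.

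The 3 miRNAs are cut from a single primary transcript, in which each forms a hairpin of its own that Drosha releases and Dicer trims to the mature strand. The cluster is best known from sensory organs such as the retina and the hair cells of the inner ear, where mutations in the seed of miR-96 cause hearing loss, and it is also found in epithelial cells and in activated lymphocytes. Known targets include the transcription factor FOXO1 for miR-96 and miR-182. miRNA levels follow both transcription of the locus and the processing of each hairpin, so members of a cluster need not have equal levels.

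The mature sequences are shown because the members differ by single bases in the seed (bases 2 to 8 from the 5′ end, in capitals), the stretch that pairs with target mRNA. They are from RefSeq, build GRCr8, where all 3 members lie on the minus strand of chromosome 4.
rno-miR-183-5p (chr4:59756106-59756127): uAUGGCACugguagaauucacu
rno-miR-96-5p (chr4:59755901-59755923): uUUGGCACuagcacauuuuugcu
rno-miR-182 (chr4:59752249-59752273): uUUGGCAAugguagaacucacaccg
Counted from the 5′ end, the seed of miR-96-5p differs from that of miR-182 by the substitution A8C, and the seed of miR-183-5p differs from that of miR-96-5p by U2A. miR-183-5p and miR-182 differ by both, U2A and A8C, in the seed, yet they are alike over the rest, with 18 of the first 22 bases equal. miR-96-5p shares only 13 of those bases with miR-183-5p and 12 with miR-182. The 3 seeds hold the core GGCA at bases 4 to 7, which 5 of the 694 mature rat miRNAs in that RefSeq table (0.72%) have at this place. No other mature miRNA of the table had the full seed of any member.

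The hairpins span 3908 bases, with 97 bases between those of miR-183 and miR-96 and 3533 bases between those of miR-96 and miR-182. The precursor of miR-183 is shown with its mature 5′ arm in capitals, since this stretch is also the site of a second miRNA on the other strand.
Mir183 (chr4:59756044-59756153): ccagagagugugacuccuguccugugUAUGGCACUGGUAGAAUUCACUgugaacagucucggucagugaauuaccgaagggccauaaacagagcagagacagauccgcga
rno-miR-3553 (chr4:59756105-59756127, plus strand): cAGUGAAUUCUACCAGUGCCAUA
In miR-3553 the capitals mark the bases that are the reverse complement of miR-183-5p, which are all 22 bases of it within the 23 of miR-3553. The entry was named after its values were seen. Its read counts mirrored those of miR-183-5p in both tissues. In the 16 lung libraries of ordinary depth there were 10731 counts of miR-3553 and 11519 of miR-183-5p, with a ratio in each library of 0.852 to 1.005 (median 0.935). In the 18 blood libraries there were 205 and 200 counts, and miR-3553 was the higher entry in 8 of them. Whether reads were counted by strand is not given in the sources used here, so the reads of the 2 entries cannot be told apart and every value of miR-183-5p below carries that limit.

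**Figure D1:**
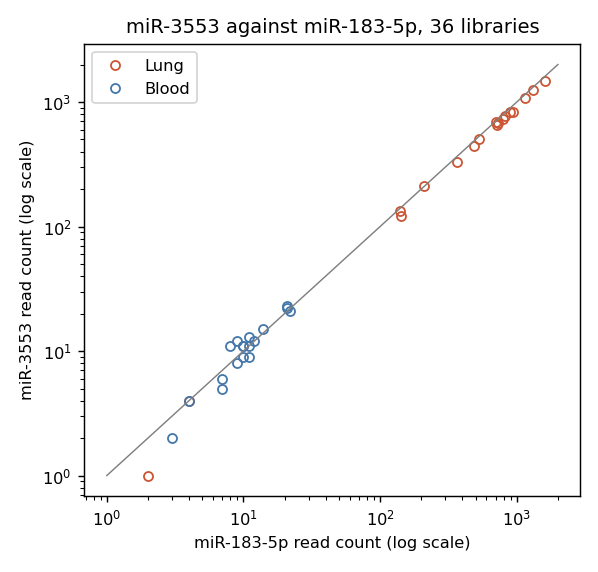
Read counts of miR-3553 (y axis, log scale) against those of miR-183-5p (x axis, log scale), with 1 open circle for each of 36 libraries and a grey line where both are equal. Lung libraries (orange) and blood libraries (blue) lie along the line, with summed counts of 10731 and 11519 in 16 lung libraries and of 205 and 200 in blood.

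Blood libraries held 1156407 to 2340177 counts and lung libraries 8132 to 3807051, and 2 lung libraries were very shallow. These are 0 Gy 1 week replicate 3 with 11621 counts and 15 Gy 3 week replicate 3 with 8132 counts, of which miR-486-5p, a red cell miRNA, took 48.1% in the latter. The other 16 lung libraries had at least 239592 counts. Another lung library, 0 Gy 4 week replicate 3, had ordinary depth (1682183) but stood apart in composition, with a scaling factor of 0.463, the highest summed level of 12 epithelial miRNAs (16650 CPM, against 4470 to 9455 in the other 17 lung libraries) and the highest miR-486-5p level (91660 CPM) of any lung library of ordinary depth. Of the 16650 CPM, 12670 CPM were miR-375-3p alone, whose median over the lung libraries was 2292 CPM. These CPM are after the scaling described next. As a share of its library total, miR-486-5p was 4.24% in that library, below the 5.65% of lung 15 Gy 1 week replicate 1. Levels below are CPM, read counts relative to the library total, after TMM scaling, which sets libraries to a common level over most miRNAs, and they can be compared within a tissue. As for the labels, the 12 epithelial miRNAs were tested in lung and none passed the filter on low counts in blood, where miR-486-5p took 83.3 to 95.9% of each library.

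The cluster was far more abundant in lung than in blood, and miR-182 was its main member in both. At 0 Gy, miR-182 made up 0.343% of all counts in lung (mean of 6 libraries) and ranked 24th of 459 entries named as rat miRNAs. miR-183-5p made up 0.0385% and ranked 72nd, and miR-96-5p made up 0.00206% and ranked 169th. In blood the shares were 0.00178% for miR-182 (rank 76), 0.000462% for miR-183-5p (rank 120) and 2.4e-05% for miR-96-5p (rank 233). The order was the same in both tissues, in read counts that were not corrected for the 25, 22 and 23 bases of these mature forms.

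Between the tissues at 0 Gy, edgeR gave a log2 fold change of 5.04 (SE 0.39, adjusted p = 1.35e-11) for miR-182 and of 3.71 (SE 0.45, adjusted p = 4.49e-08) for miR-183-5p. Both differences were larger than the spread between libraries, and the lung and blood libraries did not overlap in counts relative to the library total alone (2202 to 5777 against 10.4 to 27.0 CPM for miR-182, and 84.4 to 551 against 1.38 to 10.8 CPM for miR-183-5p). Of the 576 miRNAs tested, 75% differed between the tissues, with a median log2 fold change of 1.85, so a call alone sets the members apart from few others. miR-96-5p had 246 counts of 10003742 in lung and 3 of 12510599 in blood, a ratio of shares of 102.5 (95% exact interval 34.7 to 500.7, counting error only), with no scaling between the tissues. The fitted log2 fold change of miR-96-5p was 3.85 (SE 0.73, adjusted p = 5.32e-05, edgeR), a value that depends on the prior count and that was 2.10 to 4.95 with any 1 library left out. All 12 epithelial miRNAs were higher in lung (median log2 fold change 7.52), while 6 of 8 blood cell miRNAs were lower and 1 higher (median -3.85). The size of the folds rests on the scaling between tissues. With library totals in place of TMM it was 7.57 for miR-182, 6.50 for miR-183-5p and 6.29 for miR-96-5p. It was 1.94 to 2.41 for miR-183-5p when any 1 of 11 of the 12 libraries was left out (3.66 without lung 0 Gy 1 week replicate 2). With the same libraries left out in turn, miR-182 was at 2.87 to 3.69 (5.08 without lung 0 Gy 1 week replicate 2). The lowest of these, 2.87, was without lung 0 Gy 4 week replicate 3.

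In lung, miR-183-5p was higher in the irradiated than in the non-irradiated groups at every week by its mean, but it did not pass the adjusted edgeR test at any week (DESeq2 called it at 4 weeks, with an adjusted p of 0.0409). Its levels at 0 Gy were 446, 455 and 215 CPM at 1 week and 327, 406 and 183 CPM at 4 weeks, with the 215 CPM resting on 4 counts. After 15 Gy they were 510, 893 and 370 CPM at 1 week and 582, 607 and 655 CPM at 2 weeks. At 3 weeks they were 662, 689 and 279 CPM, the last from 2 counts, and at 4 weeks 762, 939 and 829 CPM. All libraries at 2 and 4 weeks were above all 6 libraries at 0 Gy, while those at 1 and 3 weeks overlapped them. How many of the 499 miRNAs tested stood apart from all 6 was not counted.

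By group mean, miR-183-5p ran from 843 ± 89.1 CPM (SD, n = 3) at 4 weeks over 615 ± 36.8 at 2 weeks, 591 ± 271 at 1 week and 543 ± 229 at 3 weeks to 372 ± 136 at 0 Gy 1 week and 305 ± 113 at 0 Gy 4 weeks. Of neighbours in that order, only 4 weeks and 2 weeks after 15 Gy did not overlap. The order was set by the means themselves, and the share of all miRNAs apart in that pair was not counted. Over all libraries the mean was 648 ± 198 CPM (n = 12) after 15 Gy and 339 ± 118 CPM (n = 6) at 0 Gy.

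**Figure D2:**
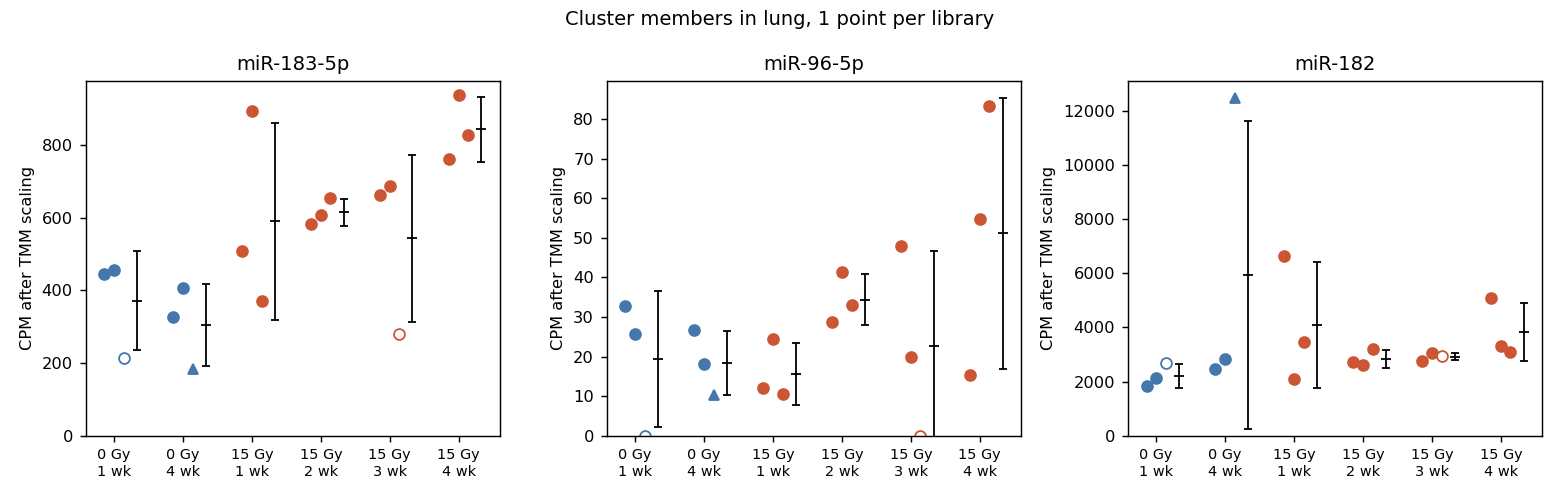
Level of each member in lung (y axis, CPM after TMM scaling, from 0) by group (x axis), with 1 point per library, 0 Gy in blue and 15 Gy in orange, and a black bar at the mean with its SD (n = 3). Open circles are the 2 very shallow libraries and the triangle is 0 Gy 4 week replicate 3. On this scale that library has the highest miR-182 (12490 CPM) and the lowest miR-183-5p (183 CPM) of the 18 libraries. Relative to library totals alone it has 5777 CPM of miR-182, below the 6339 CPM of 15 Gy 1 week replicate 1.

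The controls were the 0 Gy libraries at 1 week for weeks 1 and 2 and those at 4 weeks for the later weeks, so that each pair of weeks shares its controls. For miR-183-5p the log2 fold change was 0.63 (SE 0.43) at 1 week, 0.69 (SE 0.43) at 2 weeks, 0.90 (SE 0.43) at 3 weeks and 1.47 (SE 0.43) at 4 weeks. The edgeR adjusted p was 0.617, 1, 0.574 and 0.453 in that order. Without the 2 very shallow libraries the values of miR-183-5p were 0.40, 0.31, 1.14 and 1.53, with edgeR adjusted p of 0.63, 1, 0.655 and 0.068. Without 0 Gy 1 week replicate 3 alone they were 0.16 at 1 week and 0.27 at 2 weeks. At 4 weeks the fold of 2.76 had an unadjusted p of 0.00406 in edgeR, the 4th smallest of the 499 miRNAs tested, and the median log2 fold change of all of them was -0.18. In that comparison 0% of all miRNAs passed the adjusted threshold of 0.05, 9.62% had an unadjusted p under 0.05, and 11.8% had groups that did not overlap, as miR-183-5p did. At 1, 2 and 3 weeks 10.4%, 5.21% and 7.82% of all miRNAs had an unadjusted p under 0.05 in edgeR, and no member did. At 2 weeks, where miR-183-5p did not overlap its controls, 15.8% of all miRNAs did not, and at 1 and 3 weeks, where no member stood apart, 15.2% and 12.4% did not.

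The call at 4 weeks depended on the tool. DESeq2 gave a log2 fold change of 1.51 (adjusted p = 0.0409) for miR-183-5p and called 11 miRNAs of the 390 it adjusted, against 0 of 499 in edgeR. With any 1 library left out, the edgeR value at 4 weeks was 1.28 to 1.73, with an adjusted p of 0.28 at the lowest. The size depended on the scaling too. After TMM scaling, miR-191a-5p itself was at 0.73, 0.63, 0.57 and 0.75 on the log2 scale from 1 to 4 weeks. Over all weeks it was at 0.67 (adjusted p = 0.379, edgeR). Scaled by miR-191a-5p, taken here as the reference, miR-183-5p differed by 0.0227 at 1 week, 0.77 at 4 weeks and 0.37 over all weeks (edgeR adjusted p of 1, 0.28 and 0.434), and miR-191a-5p is itself among the miRNAs most like miR-183-5p over lung libraries. With all 15 Gy against all 0 Gy libraries the log2 fold change was 0.92 (SE 0.27, unadjusted p = 0.00415, the 5th smallest of 499, adjusted p = 0.355, edgeR), where 0% of miRNAs passed and 9.02% had an unadjusted p under 0.05. DESeq2 gave 0.85 there (adjusted p = 0.43). The entry on the other strand, miR-3553, had log2 fold changes of 0.58, 0.63, 0.83 and 1.51 at the 4 weeks, which were not taken as a second measurement.

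Among the irradiated groups, miR-183-5p at 3 and 4 weeks differed by 0.20 (SE 0.30, adjusted p = 0.98, edgeR) from that at 1 and 2 weeks on the log2 scale, with a 95% interval of -0.39 to 0.79. Between the non-irradiated groups it differed by -0.32 (SE 0.43, adjusted p = 0.929, edgeR) at 4 weeks against 1 week.

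miR-96-5p was the rarest member in lung and had its highest mean at 4 weeks, without passing the adjusted test. Its levels at 0 Gy were 32.7, 25.7 and 0 CPM at 1 week and 26.7, 18.2 and 10.3 CPM at 4 weeks. After 15 Gy they were 12.0, 24.5 and 10.4 CPM at 1 week and 28.7, 41.4 and 33.0 CPM at 2 weeks. At 3 weeks they were 48.0, 19.9 and 0 CPM and at 4 weeks 15.2, 54.8 and 83.3 CPM. Both zeros are from the very shallow libraries, where 3 counts, the limit that a count of 0 allows, are 258.2 and 368.9 CPM of the library totals, above every level seen in lung. In the other 16 lung libraries the values rest on 7 to 108 counts.

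The group means of miR-96-5p ran from 51.1 ± 34.2 CPM at 4 weeks over 34.3 ± 6.46 at 2 weeks, 22.7 ± 24.1 at 3 weeks, 19.4 ± 17.2 at 0 Gy 1 week and 18.4 ± 8.18 at 0 Gy 4 weeks to 15.6 ± 7.75 at 1 week after 15 Gy (SD, n = 3 each), and every group overlapped its neighbours. The log2 fold change was -0.82 (SE 0.66) at 1 week, 0.37 (SE 0.65) at 2 weeks, 0.78 (SE 0.65) at 3 weeks and 1.40 (SE 0.62) at 4 weeks, with edgeR adjusted p of 0.693, 1, 0.8 and 0.453. Without the 2 very shallow libraries the values of miR-96-5p were -0.94, 0.10, 0.85 and 1.42 (edgeR adjusted p of 0.418 or above). At 4 weeks its unadjusted p was 0.0388 in edgeR, and the groups overlapped, since the 15.2 CPM of replicate 1 lay within the controls. Late against early irradiated libraries differed by 0.81 (SE 0.46, adjusted p = 0.639, edgeR), where 0.401% of the 499 miRNAs passed and 11.8% had an unadjusted p under 0.05. Between the non-irradiated groups the log2 difference was -0.51 (SE 0.64, adjusted p = 0.902, edgeR).

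miR-182, the most abundant member, had no direction after 15 Gy that held over weeks or control libraries. Its levels at 0 Gy were 1826, 2138 and 2689 CPM at 1 week and 2452, 2843 and 12490 CPM at 4 weeks. After 15 Gy they were 6646, 2111 and 3472 CPM at 1 week and 2710, 2602 and 3203 CPM at 2 weeks. At 3 weeks they were 2774, 3049 and 2934 CPM and at 4 weeks 5073, 3317 and 3093 CPM. The library with 12490 CPM, 0 Gy 4 week replicate 3, is the one that stood apart above, and it lifted its group to 5929 ± 5687 CPM (SD, n = 3). Relative to library totals alone it had 5777 CPM of miR-182, below the 6339 CPM of 15 Gy 1 week replicate 1.

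The other groups had means of 4076 ± 2327 CPM at 1 week, 3828 ± 1084 at 4 weeks, 2919 ± 138 at 3 weeks and 2838 ± 320 at 2 weeks after 15 Gy and of 2218 ± 437 at 0 Gy 1 week. Of neighbours in that order, only 4 and 3 weeks after 15 Gy did not overlap, and the share of all miRNAs apart there was not counted. The log2 fold change of miR-182 was 0.88 (SE 0.55) at 1 week, 0.36 (SE 0.55) at 2 weeks, -1.02 (SE 0.55) at 3 weeks and -0.63 (SE 0.55) at 4 weeks. None passed in edgeR (adjusted p of 0.572, 1, 0.591 and 0.726). Without 0 Gy 4 week replicate 3 the values at 3 and 4 weeks became 0.15 and 0.62, so both negative signs rest on that library.

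The non-irradiated groups differed by 1.42 on the log2 scale (SE 0.56, unadjusted p = 0.0226, adjusted p = 0.568, edgeR) at 4 weeks against 1 week, and by 0.15 without the same library. In that comparison 0% of miRNAs passed and 7.21% had an unadjusted p under 0.05, and 13.6% did not overlap, which no member did. With library totals in place of TMM, the difference of miR-182 between these groups was 0.35 (adjusted p = 0.856, edgeR). All 15 Gy against all 0 Gy gave -0.10 (SE 0.33, adjusted p = 1, edgeR), with a 95% interval of -0.76 to 0.55, and 0.45 without that library. In 1, 2 and 3 weeks after 15 Gy, as at 4 weeks, 0% of all 499 miRNAs passed the adjusted test.

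**Figure D3:**
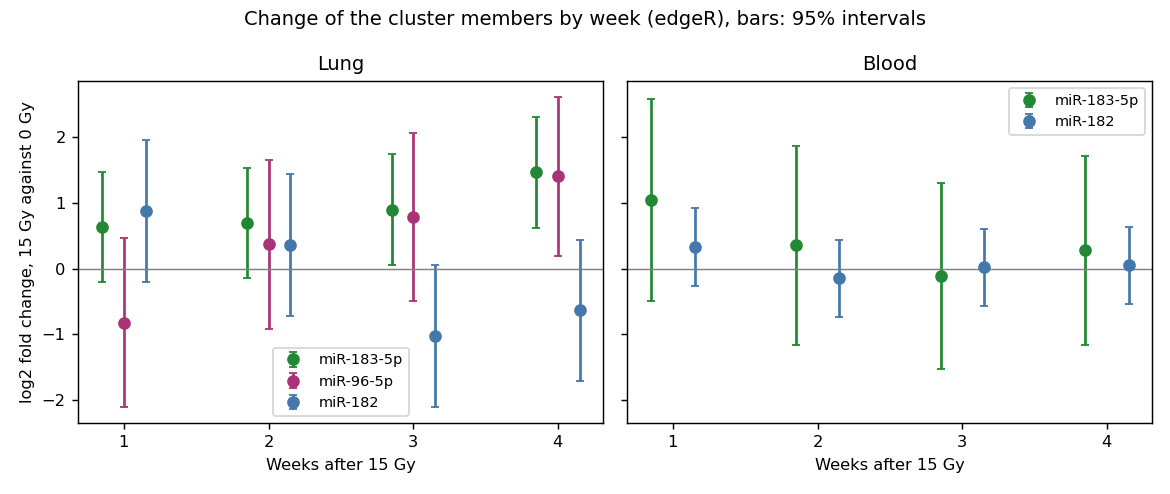
Log2 fold change of 15 Gy against 0 Gy (y axis) by week (x axis) in lung (left) and blood (right) from edgeR, with 95% intervals as bars. The values of miR-183-5p (green) are above 0 at all weeks in lung, from 0.63 to 1.47, with intervals that include 0 at 1 and 2 weeks. In lung miR-182 (blue) runs from 0.88 to -1.02, and its intervals there include 0 at every week. The blood intervals all include 0.

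Since the members come from a single transcript, their ratio within a library needs no scaling between libraries. In lung there were 2.36 to 68.4 counts of miR-182 for each count of miR-183-5p (median 4.80, n = 18), and 2.36 to 13.04 (median 4.66, n = 15) without the 3 libraries named above. The ratio of 68.4 was that of 0 Gy 4 week replicate 3, with 9718 counts of miR-182 and 142 of miR-183-5p. In the 16 lung libraries with counts of miR-96-5p there were 9.95 to 50.1 counts of miR-183-5p for each (median 18.8). In blood the ratio of miR-182 to miR-183-5p was 1.24 to 10.3 (median 3.85, n = 18).

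The log2 ratio of miR-182 to miR-183-5p was 2.15 ± 0.51 at 4 weeks after 15 Gy and 3.94 ± 1.87 at 0 Gy 4 weeks (SD, n = 3 each), a difference of -1.79. The groups did not overlap, and the exact permutation test (two-sided) gave p = 0.1, the smallest that 3 against 3 libraries allow. Without 0 Gy 4 week replicate 3 the difference was -0.71. At 1, 2 and 3 weeks it was 0.14, -0.38 and -1.50, with exact permutation p of 0.9, 0.8 and 0.3. Over all 12 irradiated and 6 non-irradiated libraries it was -0.88 (p = 0.088, exact permutation test, 0.275 after Benjamini-Hochberg adjustment over the 11 ratio tests), and -0.31 without that library.

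The log2 ratio of miR-183-5p to miR-96-5p was 5.20 ± 0.15 at 1 week after 15 Gy and 3.69 ± 0.48 at 0 Gy 1 week (SD, n = 3 each). Of these controls, replicate 3 had 4 counts of miR-183-5p and 0 of miR-96-5p, so its value is set by the pseudocount of 0.5. Without it the difference was 1.26 in place of 1.52, and 1.76 with a pseudocount of 1. The groups did not overlap either (exact permutation p = 0.1, adjusted 0.275), with 35.5 to 42.6 counts of miR-183-5p for each of miR-96-5p in the irradiated libraries and 13.7 and 17.7 in the 2 controls that had counts of miR-96-5p. At 2, 3 and 4 weeks the differences were 0.45, -0.32 and 0.29, with exact permutation p of 0.2, 0.8 and 0.8, and over all libraries 0.48 (p = 0.268). At 0 Gy, the log2 ratio of miR-182 to miR-183-5p was 3.26 ± 1.48 in lung and 2.09 ± 0.82 in blood (SD, n = 6 each), a difference of 1.17 (exact permutation p = 0.0996, adjusted 0.275).

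**Figure D4:**
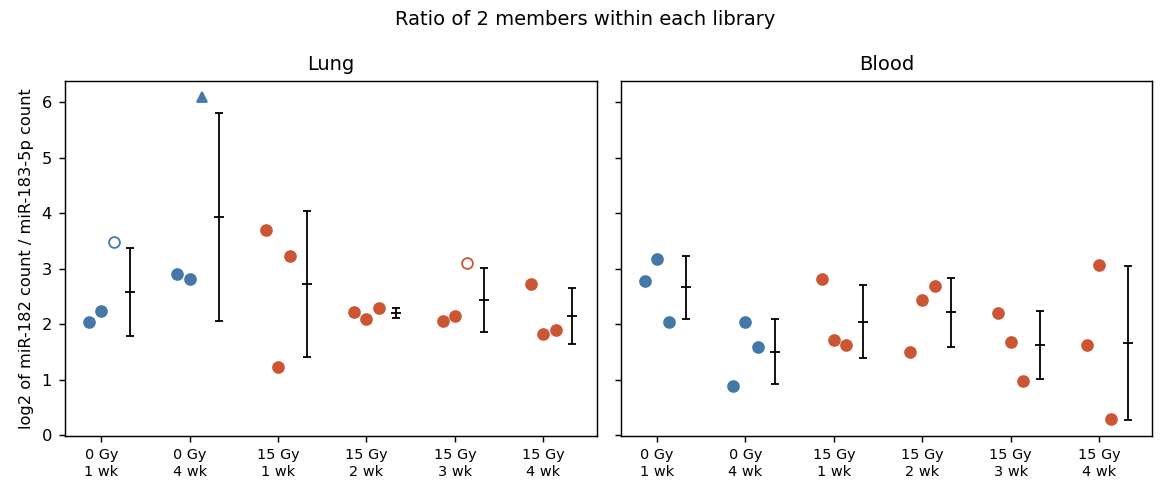
Log2 of the ratio of miR-182 to miR-183-5p counts (y axis) by group (x axis) in lung (left) and blood (right), with 1 point per library, symbols as for the lung levels, and a black bar at the mean with its SD (n = 3). Without the 3 libraries named in the text the lung ratios run from 2.36 to 13.04, and 0 Gy 4 week replicate 3 (triangle) is highest at 6.09 on the log2 scale.

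Across the 18 lung libraries, log2 CPM of miR-183-5p and miR-96-5p rose and fell together, with Pearson's r of 0.685 (permutation p = 0.00244, adjusted 0.00732 over 3 pairs) and Spearman's rho of 0.657 (permutation p = 0.00383, adjusted 0.0115). Within the 12 irradiated libraries r was 0.824 (rho 0.643) and within the 6 at 0 Gy it was 0.656 (rho 0.657). Both sets hold a very shallow library with 0 counts of miR-96-5p, where its log2 CPM is set by the prior count. With the 2 libraries farthest from the median miR-183-5p left out, r was 0.637 (n = 16), with the very shallow 15 Gy 3 week replicate 3 still in. Without the 3 libraries named above r was 0.485 (n = 15, permutation p = 0.0669) and rho 0.418 (permutation p = 0.122). The relation was thus not shown without those libraries. Values of a library share its scaling and depth. For miR-182 no such relation was found, with r of -0.301 (permutation p = 0.228) and rho of 0.044 (permutation p = 0.864) for miR-183-5p, and r of -0.111 (permutation p = 0.638) and rho of -0.261 (permutation p = 0.292) for miR-96-5p. For miR-183-5p and miR-182, r was 0.136 with the 2 farthest libraries left out (n = 16), and -0.774 within the 6 libraries at 0 Gy, among them 0 Gy 4 week replicate 3.

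The rat miRNAs whose levels were most like those of miR-183-5p over the 16 lung libraries of ordinary depth, among 242 tested, were miR-3553 (r = 0.997), miR-125b-1-3p (r = 0.869), miR-501-3p (r = 0.819), miR-191a-5p (r = 0.774) and miR-99a-5p (r = 0.757). For miR-182 they were miR-28-3p (r = 0.901), miR-143-3p (r = 0.883), miR-30e-3p (r = 0.876), miR-375-3p (r = 0.866) and miR-25-3p (r = 0.828). Without 0 Gy 4 week replicate 3 the 5 values for miR-182 were 0.61 to 0.76. Those for miR-183-5p were then 0.995, 0.935, 0.652, 0.693 and 0.593, in the order above. The 2 lists share no name.

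Other miRNAs known from epithelium did not pass the test in lung after 15 Gy. Of the 12 listed (the miR-200 family, miR-203a-3p, miR-205, miR-31a-5p, miR-34b-5p, miR-34c-5p, miR-375-3p and miR-449a-5p), 4 had positive and 8 negative values at 4 weeks, with a median log2 fold change of -0.37 against -0.18 for all miRNAs. miR-375-3p, known from neuroendocrine cells, was at -1.47 (SE 0.51, adjusted p = 0.453, edgeR) and miR-141-3p of the miR-200 family at 0.55 (SE 0.40, adjusted p = 0.633, edgeR). The highest level of miR-375-3p in lung, 12670 CPM, was in the control 0 Gy 4 week replicate 3. Between the non-irradiated groups miR-375-3p differed by 1.57 on the log2 scale (SE 0.51, adjusted p = 0.568, edgeR) at 4 weeks against 1 week. The list had 4, 5 and 4 positive values at 1, 2 and 3 weeks, and medians of -0.17, -0.05 and -0.24 (all miRNAs 0.15, 0.10 and -0.10). Its summed level was 6397 to 7454 CPM at 4 weeks after 15 Gy and 7802 to 16650 CPM at 0 Gy 4 weeks, the highest in replicate 3. At 0 Gy 1 week the sum was 5270 to 7715 CPM.

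Of the 8 blood cell miRNAs, none passed in lung either. At 4 weeks 6 had positive values (median log2 fold change 0.43), among them miR-142-5p of leukocytes at 1.34 (SE 0.51, adjusted p = 0.453, edgeR). At 1, 2 and 3 weeks 1, 6 and 7 of the 8 were positive (medians -0.27, 0.20 and 0.42). The sum of the leukocyte miRNAs was 801 to 1588 CPM at 4 weeks after 15 Gy and 1080 to 1662 CPM at 0 Gy 4 weeks, and the red cell miRNA miR-486-5p was at 14420 to 27060 and 6687 to 91660 CPM. The part of these in the values of the members was not tested. In bulk tissue, fewer cells of a type and less RNA per cell cannot be told apart.

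In blood, miR-182 was measured in every library, at 13.8 to 32.2 CPM after TMM scaling. Its levels at 0 Gy were 26.5, 19.2 and 20.6 CPM at 1 week and 23.1, 21.4 and 15.3 CPM at 4 weeks. After 15 Gy they were 26.9, 24.4 and 32.2 CPM at 1 week, 16.3, 24.0 and 19.7 CPM at 2 weeks, 22.9, 15.6 and 22.2 CPM at 3 weeks and 13.8, 20.8 and 27.6 CPM at 4 weeks. These rest on 18 to 88 counts per library, and every irradiated group overlapped its controls on this scale. The log2 fold change was 0.33 (SE 0.30), -0.15 (SE 0.30), 0.02 (SE 0.30) and 0.05 (SE 0.30) from 1 to 4 weeks, and the edgeR adjusted p was 0.949 or above. Over all 15 Gy against all 0 Gy libraries it was 0.06 (SE 0.19, adjusted p = 0.902, edgeR), with a 95% interval of -0.30 to 0.42. By group mean it was highest at 1 week after 15 Gy (27.8 ± 3.97 CPM, SD, n = 3), followed by 22.1 ± 3.87 at 0 Gy 1 week, with the remaining groups at 20.0 to 20.7 CPM, and neighbours overlapped throughout. Relative to library totals alone miR-182 ran from 10.4 to 46.8 CPM, and the group at 2 weeks (30.3 to 35.3 CPM) lay above its controls (10.4 to 27.0 CPM). The share of all miRNAs with groups apart on that scale was not counted. The red cell miRNA named above took 83.65 to 85.45% of the counts at 2 weeks and 88.98 to 95.92% in these controls. Its part in the separation was not tested. The log2 fold change of miR-182 at 2 weeks was then 0.95 (adjusted p = 0.174, edgeR) in place of -0.15. The direction of miR-182 there thus rests on the scaling.

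miR-183-5p in blood rests on 3 to 22 counts per library. Its levels at 0 Gy were 3.66, 1.86 and 4.59 CPM at 1 week and 12.4, 4.98 and 4.96 CPM at 4 weeks. After 15 Gy they were 3.62, 7.18 and 10.1 CPM at 1 week, 5.57, 4.26 and 2.91 CPM at 2 weeks, 4.72, 4.75 and 11.1 CPM at 3 weeks and 4.28, 2.37 and 22.3 CPM at 4 weeks. Single libraries stood high in several groups, and each irradiated group overlapped its controls after TMM scaling. Relative to library totals alone, the groups at 1 week (4.00 to 5.79 CPM) and 2 weeks (5.08 to 10.4 CPM) lay above their controls (1.38 to 3.73 CPM), with log2 fold changes of miR-183-5p of 0.92 and 1.51 (adjusted p of 1 and 0.131, edgeR). The share of all miRNAs with groups apart on that scale was not counted. Group means ran from 9.65 ± 11 CPM at 4 weeks to 4.25 ± 1.33 at 2 weeks after 15 Gy and 3.37 ± 1.39 at 0 Gy 1 week (SD, n = 3 each), and all neighbours in that order overlapped. The log2 fold change was 1.05 (SE 0.78), 0.35 (SE 0.77), -0.11 (SE 0.72) and 0.28 (SE 0.73) from 1 to 4 weeks, with edgeR adjusted p of 0.958, 0.949, 0.966 and 0.982. At 4 weeks the value was -1.21 without replicate 3 of the irradiated group. A change of the size seen in lung at 4 weeks could not be told from none at this depth, since the 95% interval in blood was -1.15 to 1.71.

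Late against early irradiated blood differed by 0.54 (SE 0.52) for miR-183-5p and -0.21 (SE 0.21) for miR-182, and the non-irradiated groups by 1.16 (SE 0.77) and -0.15 (SE 0.30), with edgeR adjusted p of 0.877 or above. Over all libraries miR-183-5p differed by 0.39 (SE 0.47, adjusted p = 0.666, edgeR). In these 7 comparisons 0 of the 2 members passed in edgeR, beside 0.346% of 289 miRNAs at 1 and at 2 weeks, 0% at 3 and 4 weeks, 0.346% between the non-irradiated groups, 1.04% over all libraries and 0% late against early. An unadjusted p under 0.05 in edgeR was reached by neither member, and by 6.23%, 11.8%, 14.9% and 7.61% of all miRNAs from 1 to 4 weeks, 4.15% between the non-irradiated groups, 16.3% over all libraries and 5.54% late against early. In DESeq2 neither member passed either, where 5, 3, 3 and 4 miRNAs were called from 1 to 4 weeks, 2 between the non-irradiated groups, 20 of 221 over all libraries and 5 late against early. After TMM scaling, groups without overlap made up 8.65%, 21.1%, 27.3% and 10.4% of all miRNAs from 1 to 4 weeks and 6.92% between the non-irradiated groups.

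**Figure D5:**
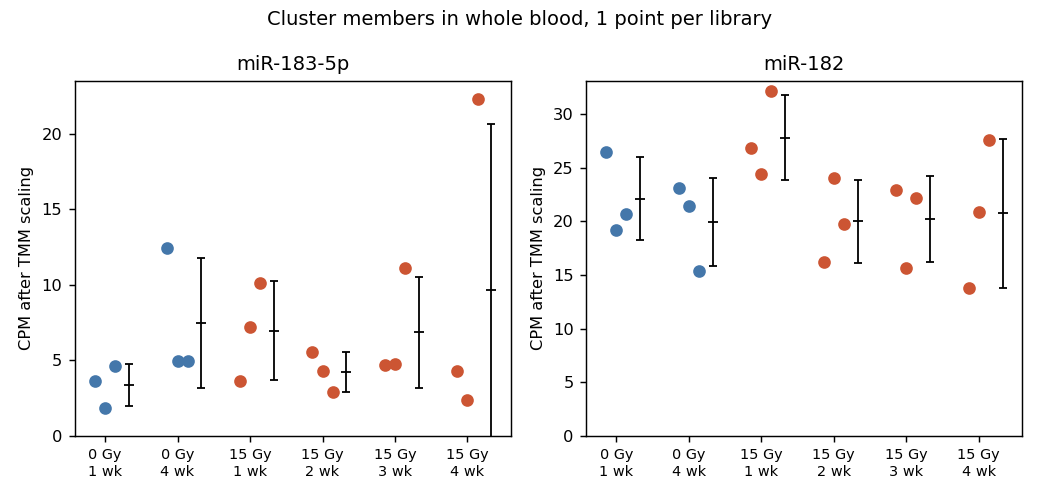
Level of miR-183-5p (left) and miR-182 (right) in whole blood (y axis, CPM after TMM scaling, from 0) by group (x axis), with 1 point per library, 0 Gy in blue and 15 Gy in orange, and a black bar at the mean with its SD (n = 3). miR-182 stays between 13.8 and 32.2 CPM, and the highest miR-183-5p is 22.3 CPM in 15 Gy 4 week replicate 3.

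miR-96-5p was close to absent from the blood counts. It had 5 counts among 34242343, in 4 of the 18 libraries, and none at 2 and 3 weeks after 15 Gy. A count of 0 allows up to 3 counts, which are 1.282 to 2.594 CPM of the library totals, and no change with dose was detectable at this depth.

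The change in lung minus the change in blood was tested directly for miR-183-5p and miR-182. For miR-183-5p it was -0.36, -0.05, 0.70 and 1.11 on the log2 scale from 1 to 4 weeks (SE 0.81 at 4 weeks, adjusted p = 0.737, edgeR). For miR-182 it was 0.60, 0.05, -1.35 and -0.87 (SE 0.66 at 3 weeks, adjusted p = 0.435, edgeR), and the value at 3 weeks was 0.03 without lung 0 Gy 4 week replicate 3. None of these passed in edgeR, beside 0.174% of 576 miRNAs at 1 and at 2 weeks and 0% at 3 and 4 weeks. An unadjusted p under 0.05 was reached by neither member (the lowest was 0.0521, for miR-182 at 3 weeks) and by 5.21%, 6.77%, 11.5% and 9.03% of all miRNAs from 1 to 4 weeks. A difference between the tissues in the response of the cluster was thus not shown.

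Of the other arms and relatives, the passenger arm miR-183-3p had 0 to 4 counts per lung library (16 in all) and none in blood, against 11525 counts of miR-183-5p in lung. A homolog named eca-miR-1271, known as a miRNA with the seed of miR-96, had 0 to 165 counts per library in lung (941 in all, against 563 of miR-96-5p). In blood it had 5 to 66 counts per library (343 in all, against 5 of miR-96-5p). Between lung and blood at 0 Gy it differed by -0.61 on the log2 scale (SE 0.63, adjusted p = 0.397, edgeR). Its mean share of the library totals at 0 Gy was 0.00363% in lung and 0.00114% in blood, so this direction rests on the scaling between tissues. Scaled within each tissue, its level was 54.3 ± 47.4 CPM in lung (SD, n = 18) and 10.9 ± 10.8 CPM in blood (n = 18). In lung its log2 fold change was 0.38, 1.19, 0.05 and 1.19 from 1 to 4 weeks, with an SE of 0.97 to 1.03 and an edgeR adjusted p of 0.715 or above. The entries cfa-miR-1271 (13 counts) and hsa-miR-1271-3p (44 counts) were near 0 throughout lung.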

How the data were processed

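Small RNA was sequenced from rat lung and whole blood (TruSeq small RNA kit, gel size selection, HiSeq). The authors removed adapters, mapped the reads to miRBase with Bowtie and deposited raw read counts per miRNA. The submitters' notes name Trim Galore 0.2.5, Bowtie 1.1.1 and the build rn4. Selection by size and PCR without molecular identifiers can shift the levels of miRNAs against each other, so intervals and floors cover counting error only.

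The members and lists were chosen with earlier results of these data known, and miR-3553 after its values were seen. Libraries were grouped by their titles. Where nothing ties a replicate to separate rats but the study's methods, p-values measure the spread between libraries, which may be technical. The 18 libraries of a tissue, or all 36 for comparisons between tissues, were fitted in edgeR 4.0.16 (R 4.3.3, limma 3.58.1) after filterByExpr and TMM, with the quasi-likelihood test and Benjamini-Hochberg adjustment over all miRNAs tested (499 in lung, 289 in blood, 576 in both). An adjusted p under 0.05 counts as passed. SE is the log2 fold change over the root of F, and 95% intervals are 1.96 SE, a normal approximation. They can leave out 0 where the p of the test is above 0.05. For miR-183-5p in lung at 3 weeks the interval was 0.05 to 1.74, with an unadjusted p of 0.055 in edgeR. Ratios used log2 counts with a pseudocount of 0.5 and two-sided exact permutation tests in scipy 1.17.1. Correlations used log2 CPM with a prior count of 0.5 and 100000 permutations. Pearson's r over the 16 lung libraries of at least 0.1 of the median depth set which rat miRNAs were named as alike, 5 for each of miR-183-5p and miR-182. The named miRNAs are the members, the other arm and relatives of miR-96, 12 epithelial and 8 blood cell miRNAs, and those alike. The fit was tested on simulated data.

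Alternatives were no filter, RLE size factors, library totals, scaling by miR-191a-5p, DESeq2 1.42.0, a replicate block, the other control group, a fit of the compared groups alone, removal of miR-486-5p, 2 blood libraries exchanged (their columns stand under each other's number in a supplement of the study), libraries left out, and a pseudocount of 1 for the ratios.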

Additional observations from a re-analysis of the deposited data

Results flagged for a closer look

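Within groups of 6 libraries at 0 Gy, a library was singled out where its gap to the nearest of the others, divided by the range of the group, was above Dixon's 95% critical value for 6 values. Among the 8 groups of values tested this way, chance alone singles out about 1 in 20. In lung, the miR-182 level of 12490 CPM in 0 Gy 4 week replicate 3 had a gap of 0.905 of the range. Relative to library totals alone that level was 5777 CPM, with the next of the 6 at 4303 CPM, and the gap on that scale was not tested. In the same library, the log2 ratio of miR-182 to miR-183-5p of 6.09 had a gap of 0.642. In blood, the miR-183-5p level of 12.4 CPM in 0 Gy 4 week replicate 1, which rests on 22 counts, had a gap of 0.704.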

How the results depend on the processing

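The alternatives gave 963 values for 57 results, of which 855 kept their direction and their side of the threshold, 103 changed sign and 5 passed a threshold where the value as reported did not. Of these, 1 is an adjusted p (miR-183-5p in lung at 4 weeks with DESeq2) and 4 are ratio differences with an unadjusted exact permutation p under 0.05 when a library was left out. None of the calls between lung and blood was lost. The cause of a change was not tested, except where a library was left out. In lung, miR-183-5p kept its sign at every week under every alternative, but its value at 1 week was 0.06 without 15 Gy 1 week replicate 2. Scaled by miR-191a-5p it was 0.0227 at 1 week, 0.77 at 4 weeks and 0.37 over all weeks, against 0.63, 1.47 and 0.92. At 4 weeks it passed with DESeq2 (1.51, adjusted p = 0.0409), which called 11 of 390 miRNAs there, and with the other settings run on all libraries it did not.

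Values that changed sign, on the log2 scale, were mostly of miR-182. With the control groups exchanged, miR-182 in lung was -0.54, -1.06, 0.40 and 0.79 from 1 to 4 weeks, and in blood 0.0039, -0.13 and -0.10 at 2, 3 and 4 weeks, while miR-183-5p in blood was -0.11, -0.80 and 1.04 at 1, 2 and 3 weeks. Without the 3 lung libraries that stood apart, an alternative chosen after seeing the data, miR-182 in lung was 0.15 at 3 weeks, 0.48 at 4 weeks and 0.51 over all weeks. Late against early irradiated lung, miR-182 was 0.045 with no filter, 0.057 with RLE size factors, 0.056 with DESeq2 and 0.066 without the very shallow libraries. Scaling by library totals gave -0.13 for miR-182 at 2 weeks in lung, 0.95 at 2 weeks in blood, 0.083 between the non-irradiated blood groups and 0.10 for miR-183-5p at 3 weeks in blood. Scaling by miR-191a-5p gave -0.32 for miR-182 at 2 weeks and -0.039 for miR-96-5p over all weeks in lung, and -0.039 for miR-182 at 1 week and 0.47 for miR-183-5p at 3 weeks in blood. In blood, miR-182 was -0.044 at 3 weeks and -0.030 at 4 weeks with no filter, -0.0003 at 4 weeks with RLE size factors and -0.083 at 3 weeks with only the groups compared, and miR-183-5p was -0.093 at 2 weeks with 2 blood libraries exchanged. For the change in lung minus that in blood at 2 weeks, miR-182 was -0.16 with no filter, -1.07 with library totals and -0.24 with miR-486-5p left out, and miR-183-5p was 0.29 with RLE size factors and 0.15 with DESeq2. Without the very shallow libraries the log2 ratio of miR-182 to miR-183-5p differed by 0.07 at 2 weeks and that of miR-183-5p to miR-96-5p by 0.39 at 3 weeks.

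Whether replicate numbers pair the libraries was not settled. Over 45 pairs of groups in each tissue, the correlation of same-numbered libraries was -0.199 to 0.378 (median 0.053) in lung and -0.229 to 0.446 (median 0.065) in blood. It was over 0.1 in 20 pairs in lung and 21 in blood, and a low correlation cannot exclude a shared preparation. With the replicate number as a block, miR-182 late against early in lung was 0.015 and miR-183-5p at 4 weeks in blood -0.036, and no other result changed sign or its call. For miR-183-5p at 4 weeks in lung the block gave 1.55 (SE 0.36, adjusted p = 0.142, edgeR).

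Leaving out 1 library at a time moved the log2 values of miR-182 in lung over -1.48 to 0.15 at 3 weeks, -0.97 to 0.62 at 4 weeks, -0.27 to 0.45 over all weeks and -0.16 to 0.24 late against early. In blood, miR-183-5p ranged over -0.017 to 0.59 at 2 weeks, -0.63 to 0.46 at 3 weeks, -1.21 to 0.85 at 4 weeks, -0.030 to 0.68 over all weeks and -0.15 to 0.79 late against early, and miR-182 over -0.29 to 0.034, -0.14 to 0.18 and -0.27 to 0.27 at 2, 3 and 4 weeks, -0.29 to 0.025 between the non-irradiated groups and -0.069 to 0.15 over all weeks. For lung minus blood, miR-183-5p ranged over -0.38 to 0.50 at 1 week and -0.32 to 0.46 at 2 weeks, and miR-182 over -0.074 to 0.42, -1.61 to 0.033 and -1.22 to 0.43 at 2, 3 and 4 weeks. The difference in log2 ratio of miR-182 to miR-183-5p ranged over -0.35 to 0.88 at 1 week, -0.66 to 0.069 at 2 weeks, -1.13 to -0.31 over all lung libraries (an exact permutation p under 0.05 without 1 of 3 libraries in turn) and 0.61 to 1.42 between lung and blood (p = 0.04545 without blood 0 Gy 1 week replicate 2). That of miR-183-5p to miR-96-5p ranged over -0.998 to 0.39 at 3 weeks and -0.36 to 0.81 at 4 weeks.

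Depth limits miR-96-5p and, in blood, miR-183-5p most. With 3 libraries per group, a log2 fold change of miR-183-5p in lung had an SE of 0.43, and the very shallow libraries add 4 and 2 counts of it.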
